A study of Homo sapiens with 2 samples.

Results

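The miRNAs miR-191-5p (hsa-miR-191-5p) and miR-425-5p (hsa-miR-425-5p) are the 5p products of a pair of hairpins, MIR191 and MIR425, that lie side by side in an intron of the protein-coding gene DALRD3. They were taken by name from a table of miRNA read counts, and are 2 of the 407 miRNAs in it and 2 of the 161 with at least 20 reads in a library. The RNA came from BT549, an established human triple-negative breast cancer cell line, in which SNHG15, a long non-coding RNA, was overexpressed with an MS2 tag. The tag consists of bacteriophage RNA loops to which the MS2 coat protein (MCP) binds. Lysate of these cells was held either on amylose resin coated with MCP fused to maltose binding protein (MBP-MCP, the pulldown) or on bare amylose resin (the control), and the miRNAs recovered from each resin were sequenced. Both groups therefore carried the tagged SNHG15, and they differed in the protein on the resin. Binding to the MBP-MCP protein and binding through SNHG15 cannot be told apart here.

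Each resin gave 1 library, with 202560 reads in the pulldown and 111414 in the control. No difference has a replicate check, and intervals below are exact 95% intervals that cover counting error only. The cell label was set beside 3 miRNAs picked after their values were seen, which is a description and no test. Their values are of miRNA recovered from a resin, and not of the total RNA of the cells. The epithelial miR-200a-3p was found as 1 read per library, and miR-221-3p, known for high levels in basal-type breast cancer cells, stood at 5006 RPM (reads per 1000000 reads of the library) in the pulldown and 4048 RPM in the control. Its cluster partner miR-222-3p stood lower, at 252 and 269 RPM.

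A miRNA hairpin is cut from a longer transcript and then trimmed into a short duplex, of which the guide strand enters an Argonaute protein and the passenger strand is mostly lost. The guide finds its targets chiefly through its seed, bases 2 to 8 from the 5′ end. The hairpins of miR-191 and miR-425 are made from a shared primary transcript with DALRD3. In breast cancer the estrogen receptor is known to raise their transcription, and BT549 lacks that receptor. miR-191-5p is also widely used as a reference miRNA in PCR assays, because its level varies little between tissues.

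On GRCh38, GENCODE places MIR191 on the minus strand of chromosome 3 at 49020618 to 49020709, and MIR425 on the same strand at 49020148 to 49020234. The gap between the hairpins is 383 bases. Of the 7 protein-coding transcripts of DALRD3 (chromosome 3, 49015488 to 49022293, minus strand), 3 hold both hairpins in intron 1, and the other 4 do not span them. In none of the 7 did a hairpin overlap an exon.

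The mature sequences below set the arms of this locus apart and hold the seeds, in capitals, that were searched in SNHG15. They are RefSeq sequences on GRCh38.p14, written 5′ to 3′. The statements on sequence and seeds cover these 3 arms and not miR-425-5p.
miR-191-5p: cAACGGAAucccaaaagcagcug
miR-191-3p: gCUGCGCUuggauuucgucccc
miR-425-3p: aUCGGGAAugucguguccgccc
The guide miR-191-5p is 23 bases long with a GC content of 52.2%, and both 3p arms are 22 bases long with a GC content of 63.6%. Of the 407 miRNAs, 321 matched a RefSeq mature sequence by name. Among those, 0 others shared a seed with any of these 3 arms, so they share no seed family in the matched part of the table. Mature miRNAs are of near-equal length, so RPM values carry no length term. Reads may not be independent molecules, so comparisons between different miRNAs or arms below are of reads and need not hold for molecules.

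The reverse complement of each of these 3 seeds was searched on the transcribed strand of the 10 SNHG15 transcripts in GENCODE. The letters were TTCCGTT for miR-191-5p, AGCGCAG for miR-191-3p and TTCCCGA for miR-425-3p, and 0 matches were found for these 3 sites. For miR-191-5p, between 0.604% and 3.91% of annotated lincRNA transcripts within 10% of the length of an SNHG15 transcript held its site, depending on that length. The same range was 1.56% to 10.6% for the miR-191-3p site and 1.01% to 4.19% for the miR-425-3p site. The absence of a match says only that these letters are not in these annotated transcripts.

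miR-191-5p was one of the dominant miRNAs on both resins. It had 5211 reads in the pulldown and 2978 in the control, or 25726 and 26729 RPM, and ranked 8 of 407 in each library. This was 2.57% of the pulldown reads (Clopper-Pearson interval 2.50 to 2.64) and 2.67% of the control reads (2.58 to 2.77). The levels lay close together and their intervals overlapped. The ratio of pulldown to control in RPM was 0.962 (0.920 to 1.01), a log2 ratio of −0.06.

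miR-425-5p, its cluster partner, had far fewer reads. It had 86 reads in the pulldown and 43 in the control, or 424.6 and 385.9 RPM, and ranked 81 and 88. The pulldown held 0.0425% of its reads as miR-425-5p (0.0340 to 0.0524) and the control 0.0386% (0.0279 to 0.0520). Its ratio was 1.10 (0.754 to 1.63) and its log2 ratio 0.14. A difference inside that interval was not detectable at this depth.

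**Figure D1:**
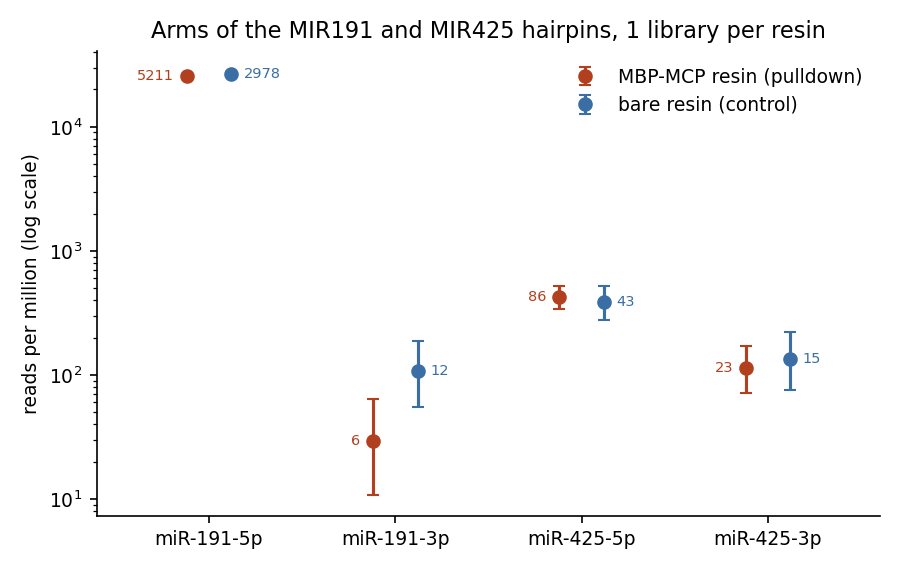
Reads per 1000000 reads (RPM), on a log axis, of the 4 arms of the MIR191 and MIR425 hairpins in the MBP-MCP resin library (red) and the bare resin library (blue), with read numbers beside the points and exact Poisson 95% intervals as bars. The bars of the guides miR-191-5p and miR-425-5p overlap between the resins. Those of miR-191-3p, with 6 and 12 reads, overlap at their ends, and its point is lower on the MBP-MCP resin.

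With total reads, neither guide had an interval that excluded a ratio of 1. Across the 161 miRNAs, 34.8% had one, 11.2% above 1 and 23.6% below. Both the call of miR-191-5p and this split depend on scaling: its interval lay above 1 with TMM factors, and the 18 above and 38 below became 36 and 15. Among the 26 miRNAs that reached 1000 reads in a library, the abundance class of miR-191-5p, 65.4% had an interval that excluded 1 in either direction with total reads. The ratio of neither guide came near a 2-fold difference, which 2.48% of the 161 miRNAs reached upward and 3.11% downward (5.59% in all). The upper bound of miR-425-5p was 1.63 with total reads and 1.97 with DESeq2 size factors, so its interval reached close to 2-fold. In the authors' deposited table both guides are uncalled, as are 381 of the 407 miRNAs (6.39% called). The authors' deposited table gives miR-191-5p a p-value of 0.50 and miR-425-5p one of 0.359, with an adjusted p of 0.849 for each. How that edgeR test set its spread with 1 library per resin is not stated. Every miRNA that the authors called differed at least 2-fold in their own fold change. On the log2 scale theirs was −0.06 for miR-191-5p and 0.14 for miR-425-5p.

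miR-191-5p sat in the middle of the known miRNAs. Of the 133 known miRNAs that reached 20 reads, 66 had a higher log2 ratio and 66 a lower one, so its value was their median. For miR-425-5p, 35 were higher and 97 lower. The median over all 161, numbered predictions included, was −0.16, with quartiles at −0.42 and 0.14. Both guides lay above that median, miR-191-5p by 0.10 and miR-425-5p by 0.29 on the log2 scale, and the interval of miR-425-5p spans it.

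**Figure D2:**
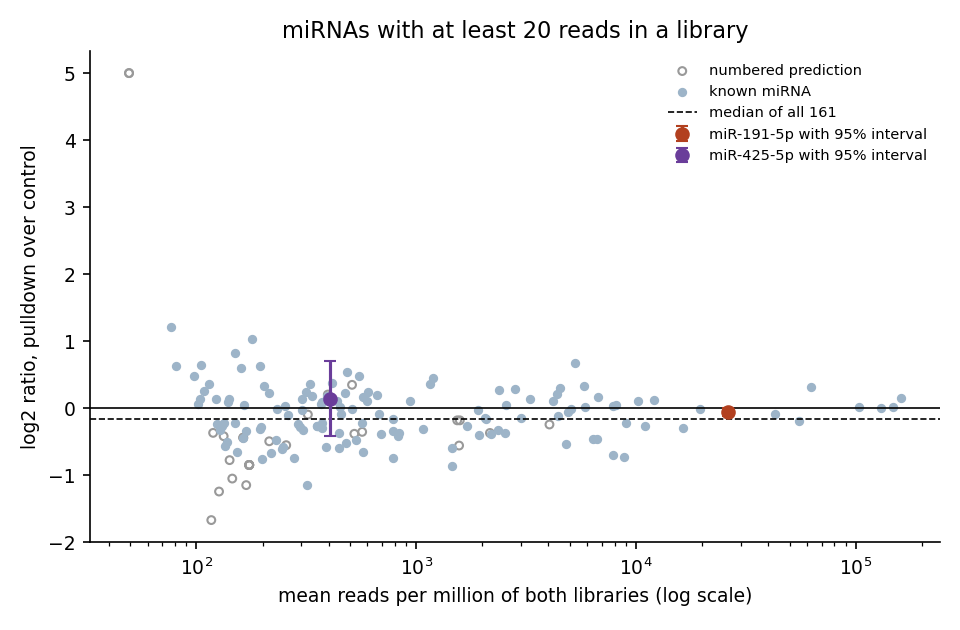
The log2 ratio of pulldown to control against the mean level in RPM (log axis) for the 161 miRNAs that reached 20 reads in a library; filled points are known miRNAs, open points numbered predictions, and the dashed line is the median of −0.16. miR-191-5p (red) and miR-425-5p (purple) carry 95% intervals and lie inside the main cloud; the open point at the top left holds 2 predictions with 0 control reads, whose position depends on the prior count.

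The direction of miR-191-5p depended on how the libraries were scaled. The TMM and DESeq2 factors used below were computed from all 407 miRNAs, with no minimum on reads. With edgeR's TMM factors its ratio was 1.10 (1.05 to 1.15), with DESeq2 size factors 1.17 (1.11 to 1.22), and with totals that leave out the 5 most abundant miRNAs 1.049 (1.002 to 1.097). These scalings moved the median of the 161 miRNAs by the same amount, to log2 ratios of 0.04, 0.12 and −0.03. The distance of miR-191-5p from that median therefore stayed at 0.10 on the log2 scale under each. miR-425-5p was above 1 under all 5 scalings, with ratios from 1.096 to 1.33, and every one of its intervals included 1. These are ratios of library shares, and the total RNA held by each resin was not analysed here.

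**Figure D3:**
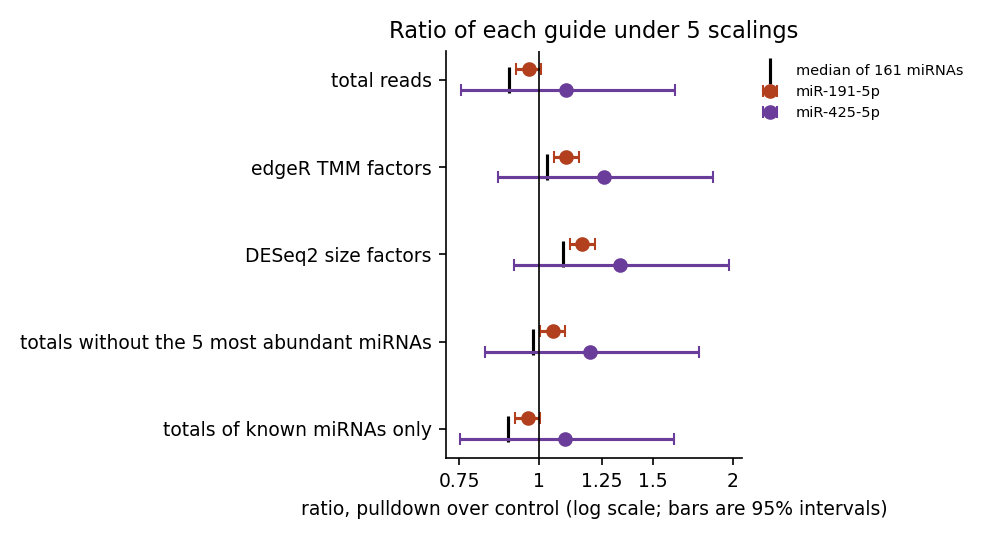
Ratio of pulldown to control (log axis) of miR-191-5p (red) and miR-425-5p (purple) under 5 library scalings, with 95% intervals; black ticks mark the median of the 161 miRNAs under the same scaling. miR-191-5p lies below 1 with total reads (0.962) and above 1 with TMM factors (1.10) and DESeq2 size factors (1.17), always just to the right of the tick.

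A comparison of the guides with each other within a library needs no scaling. The pulldown held 60.6 miR-191-5p reads for each miR-425-5p read, and the control held 69.3. The ratio of these values was 0.875 (0.590 to 1.28), so no difference in the balance of the guides was detectable with 86 and 43 reads of miR-425-5p. Co-transcribed pairs elsewhere were compared the same way. For these pairs and the intronic list below, the guide was the arm with more reads over both libraries among arms that share a name. Whether that arm enters Argonaute was not examined. By that rule miR-106b-3p (104 and 49 reads) and not miR-106b-5p (15 and 5) stood for its hairpin. Each guide comes from a single hairpin and has at least 20 reads in a library. The hairpins of a pair lie within 10 kb on the same strand. There were 18 such pairs made from 26 miRNAs, so some pairs share a miRNA, and the interval excluded 1 in 11.1% of them.

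The reads of miR-191-5p and miR-425-5p were the most unequal of the 18 pairs in both libraries. The other 17 pairs held from 1.03 to 38.0 reads of the first guide per read of the second in the pulldown, and from 1.02 to 44.8 in the control. In the shift of that balance between the resins, 9 of the other 17 pairs exceeded miR-191-5p against miR-425-5p, whose log2 shift of −0.19 was near the median size of 0.21.

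The pairs named here had at least 100 reads of each partner in one library or the other. In the cluster of miR-99b, let-7e and miR-125a, let-7e-5p had 1666 and 885 reads and miR-99b-5p had 1622 and 868, a shift of 1.01 (0.896 to 1.13). The shifts of miR-125a-5p were 1.06 against let-7e-5p (0.949 to 1.18) and 1.06 against miR-99b-5p (0.956 to 1.19). In the MCM7 intron, the shift of miR-93-5p was 0.849 against miR-106b-3p (0.589 to 1.21) and 0.884 against miR-25-3p (0.795 to 0.982), and that of miR-25-3p was 0.960 against miR-106b-3p (0.661 to 1.38). miR-106b-3p had 104 and 49 reads, a depth near that of miR-425-5p, and its intervals are of like width. miR-182-5p shifted by 0.878 against miR-183-5p (0.665 to 1.16). The largest shift with deep reads was that of miR-27a-3p against miR-23a-3p, at 0.613 (0.538 to 0.699). The intervals of miR-93-5p against miR-25-3p and of miR-27a-3p against miR-23a-3p were the only ones of the 18 to exclude 1. That of miR-191-5p against miR-425-5p overlaps all of those named here.

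**Figure D4:**
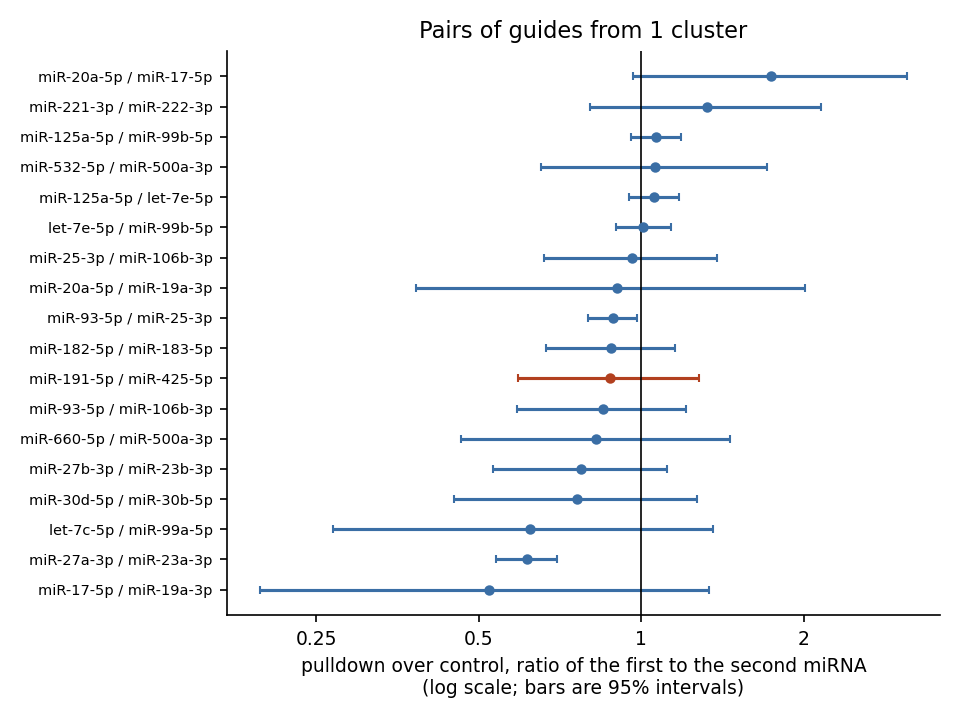
Pulldown over control, on a log axis, of the read ratio of the first to the second miRNA of 18 co-transcribed pairs, with 95% intervals. The pair of miR-191-5p and miR-425-5p (red) stands at 0.875 with an interval from 0.590 to 1.28; the intervals of miR-27a-3p against miR-23a-3p and of miR-93-5p against miR-25-3p lie below 1.

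The passenger strand of MIR191 was lower in the pulldown library. miR-191-3p had 6 reads in the pulldown and 12 in the control, the higher number being in the library with fewer reads. It stood at 29.6 RPM in the pulldown and 108 RPM in the control, a ratio of 0.275 (0.0847 to 0.792). It had fewer than 20 reads in each library and so is not among the 161 miRNAs. With no minimum on reads, 13.0% of the 407 miRNAs had an interval below 1. Its interval lay below 1 under all 5 scalings, with the highest upper bound, 0.960, under DESeq2 size factors. The authors' deposited table calls miR-191-3p lower, as it does 2.46% of all 407 miRNAs, with a p-value of 0.0385 and an adjusted p of 0.450.

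Set against its own guide, miR-191-3p made up 0.115% of the reads of the hairpin in the pulldown (0.0422 to 0.2502) and 0.401% in the control (0.208 to 0.700). There were 869 miR-191-5p reads per miR-191-3p read in the pulldown and 248 in the control. The balance of guide to passenger was 3.50 times higher in the pulldown (1.21 to 11.4), and this value does not depend on scaling. It rests on 6 and 12 reads, and with a prior count of 5 reads it was 2.70.

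For MIR425 the interval of that shift included 1. miR-425-3p had 23 reads in the pulldown and 15 in the control, or 114 and 135 RPM, a ratio of 0.843 (0.422 to 1.74). The 5p arm made up 78.9% of the reads of the hairpin in the pulldown (70.0 to 86.1) and 74.1% in the control (61.0 to 84.7). The guide-to-passenger balance differed by 1.30 (0.570 to 2.92), and this interval overlaps that of MIR191. Set against miR-425-3p, miR-191-3p shifted by 0.333 (0.0829 to 1.21), so a difference between the passenger strands was not detectable at this depth.

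The hairpins also differ in how fully one arm dominates. Over both libraries the 5p arm made up 99.8% of the reads of MIR191 and 77.2% of those of MIR425. Of the 60 hairpin names with both arms in the table and at least 20 reads of the major arm, 7 had a higher major arm share than MIR191 and 48 a higher one than MIR425. The median share was 95.3%. The major-to-minor balance had an interval that excluded 1 in 15.0% of the 60, in 7 toward the major arm in the pulldown, MIR191 among them, and in 2 toward the minor arm. Counting all 60 whatever their interval, the major arm share was higher in the pulldown in 38 and lower in 22. The major arm was set from both libraries together and needed 20 reads in only 1, so the deeper pulldown weighed more. Toward the major arm, miR-130b-3p (30 and 15 reads), miR-140-3p (39 and 14) and miR-374a-5p (39 and 12) passed through the pulldown alone. So did miR-301a-3p (22 and 18), toward the minor arm. These splits are therefore a description and no test.

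**Figure D5:**
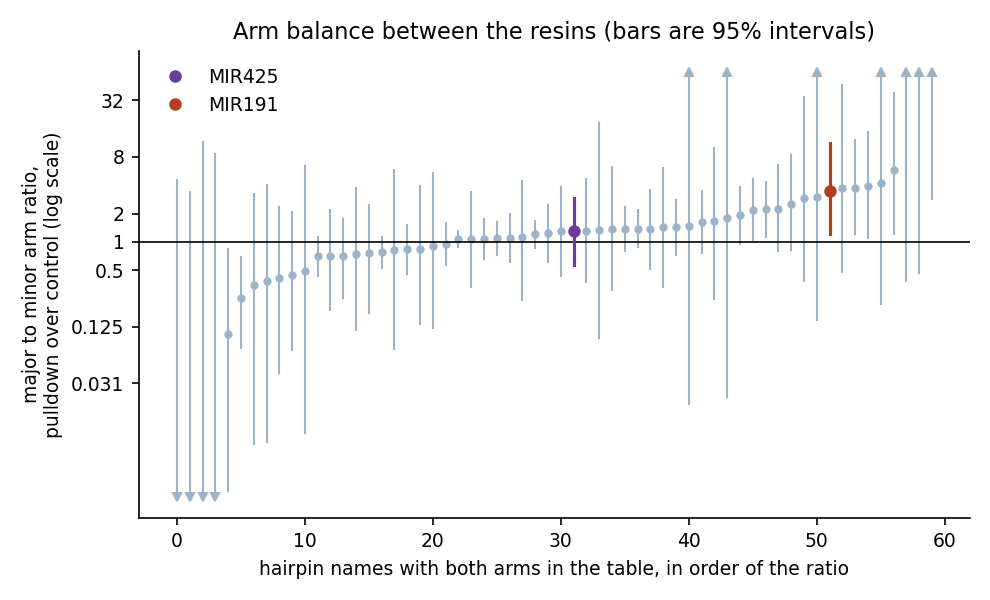
Pulldown over control of the read ratio of the major to the minor arm (log axis) for 60 hairpin names in order of that ratio, with 95% intervals; triangles mark bounds beyond the plotted range, and names with 0 minor arm reads in a library have no point. MIR191 (red) stands at 3.50 with an interval above 1, and MIR425 (purple) at 1.30 with an interval across 1.

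The order of the levels differed in clarity for the guides. In both libraries miR-21-5p, an oncogenic miRNA, stood next above miR-191-5p, with 8475 reads in the pulldown and 4937 in the control. miR-93-5p stood next below, with 3953 and 2195. In the pulldown the neighbours one place further were miR-125b-5p with 10378 reads and miR-29a-3p with 2977. In the control they were let-7b-5p with 6248 and miR-29a-3p with 2003. Each of these neighbours differed from miR-191-5p beyond counting error in its library. The place of miR-425-5p was not resolved. In the pulldown its nearest known neighbours were miR-143-3p and miR-130a-3p (90 reads each) and miR-23b-3p (89) above and miR-10a-3p (85) and miR-660-5p (80) below. In the control, miR-335-5p and miR-361-3p had 43 reads as well, with miR-10a-3p (41) and, at 40 reads each, miR-30c-2-3p, miR-30e-3p and miR-378a-3p below. No interval of these comparisons with miR-425-5p excluded equal levels.

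Likeness in the difference between resins was measured over these 2 libraries alone, as distance in log2 ratio among the 66 known miRNAs that reached 100 reads in a library. The nearest to miR-191-5p were miR-26b-5p (972 and 556 reads, log2 ratio −0.06), let-7d-5p (384 and 216, −0.03) and miR-22-3p (134 and 78, −0.08). The nearest to miR-425-5p were miR-30a-5p (696 and 348, 0.14), miR-125a-5p (2550 and 1282, 0.13) and miR-16-5p (34274 and 17015, 0.15). With a pair of libraries such neighbours describe only a similar ratio.

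The guides were also set beside other miRNAs from introns of protein-coding genes. The guide was again the arm with more reads. Arms were grouped by name, so a locus-numbered arm such as miR-30c-2-3p counted as a guide of its own. The hairpins of 124 guides all lay in sense introns of protein-coding genes. Of these, 52 had at least 20 reads in a library, miR-191-5p and miR-425-5p among them. Of the 52, 23 had a log2 ratio above 0 and 29 below, with a median of −0.07, and their intervals lay above 1 in 6 and below 1 in 9. The other 62 known guides had 29 above 0 and 33 below, a median of −0.03, and intervals above 1 in 10 and below 1 in 16. They are not a purely non-intronic group. Some had no hairpin matched by name, and some, such as miR-16-5p, have 1 hairpin in a sense intron and 1 outside. At the ends of the intronic list stood miR-152-3p (119 and 110 reads, log2 ratio −0.75), an intronic miRNA of COPZ2, and miR-140-3p (39 and 14 reads, 0.60), one of WWP2. miR-191-5p and miR-425-5p lay between them.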

How the data were processed

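miRNA sequencing was made from the RNA held on MBP-MCP resin and on bare resin, 1 library each, grouped by the treatment label. The authors deposited raw read counts per miRNA, and values headed Tpm that are CPM (here RPM), reads per 1000000 reads of the library, with no length term. The deposited CPM values differ from those recomputed from the counts by at most 0.0484%. The authors' log2 fold change is the ratio of those values, and their p-values come from edgeR, per the name the authors gave the deposited data. GRCh38 was the build, per the submitters' processing notes. Which aligner and annotation were used, and whether molecular identifiers were counted, was not given in the sources used here, so reads may not be independent molecules. Per the labels' protocols, mirVana was used for RNA isolation and a QIAseq kit for the libraries.

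From the counts, RPM ratios were computed with total reads, and log2 ratios with a prior count of 0.5. Intervals are exact conditional binomial ones for ratios (SciPy 1.17.1), conditional odds ratios for pairs and Clopper-Pearson ones for shares. Scalings by edgeR 4.0.16 TMM factors (pulldown 0.935, control 1.07) and DESeq2 1.42.0 size factors (1.22 and 0.816) were alternatives. Libraries of 1 per group allow no p-value of their own. Hairpins were matched by name to GENCODE 29 for 347 of 357 known miRNAs, and the 50 numbered predictions were left unmatched. The steps were tested on simulated data. The named miRNAs are the arms of both hairpins, the 2 known neighbours on each side in level, the 3 nearest in log2 ratio, pairs with at least 100 reads of each partner in a library, ties, and others chosen after their values were seen (miR-200a-3p, miR-221-3p, miR-222-3p, miR-152-3p, miR-140-3p, miR-130b-3p, miR-374a-5p, miR-301a-3p and the reference miRNAs). The members and lists were chosen with earlier results of these data known. The cut of 1000 reads and the comparison of arms over 60 names were added after seeing the data.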

Additional observations from a re-analysis of the deposited data

How the results depend on the processing

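No paired analysis was possible because each resin has 1 library, and for the same reason no replicate could be left out. The log2 ratio of miR-191-5p, −0.06 with total reads, became 0.14 with TMM factors, 0.22 with DESeq2 size factors and 0.069 with totals that leave out the 5 most abundant miRNAs, by the construction of those scalings. It stayed within its interval with totals of known miRNAs and with a prior count of 5, and miR-425-5p, the balance of the guides and the arm shares stayed within theirs under every alternative run. The number of miRNAs with an interval above 1, 18 of 161, became 36, 44 and 28 under the same 3 scalings in that order, and the number below 1, 38, became 15, 12 and 21. Those at least 2-fold higher, 4, became 0 with a minimum of 50 reads, 75 with no minimum and 2 among known miRNAs. Those at least 2-fold lower, 5, became 0, 79 and 1 under these, 2 with the TMM scaling and 1 with that of DESeq2. Depth limits miR-425-5p and both 3p arms most, with 6 to 86 reads each.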

Other observations

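Because miR-191-5p is a common reference in PCR assays, each of the other 160 miRNAs that reached 20 reads in a library was also set against it, a comparison that needs no scaling. The interval excluded 1 in 28.7% of them, with 19 higher and 27 lower in the pulldown relative to miR-191-5p. Among the 25 others that reached 1000 reads, 9 were higher, 8 were lower and 8 had intervals that included 1.

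Some other miRNAs used as references, picked after their values were seen and from no fixed list, lay on both sides of it. Relative to miR-191-5p, miR-16-5p was 1.15 times higher in the pulldown (1.10 to 1.21), miR-103a-3p 1.12 times (2150 and 1094 reads, 1.03 to 1.22) and let-7a-5p 1.05 times (1.003 to 1.11). miR-423-5p, with 123 and 60 reads, gave 1.17 (0.851 to 1.63), an interval that includes 1. miR-24-3p was lower, at 0.896 (0.819 to 0.980). The intervals of miR-93-5p (1.03, 0.960 to 1.10) and miR-361-5p (0.932, 0.711 to 1.23) included 1. These intervals cover counting error only, and with 1 library for each resin no spread between libraries is known.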
